A study of Mus musculus with 2 samples.

Results

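Pdcd1-positive cells were taken as cells with at least 2 transcript tags of Pdcd1, the gene of the inhibitory receptor PD-1 (ENSMUSG00000026285). They numbered 1329 of the 27258 cells that passed the quality limits, 559 of 13617 in the library labelled HC and 770 of 13641 in the library labelled NC. A tag is a unique molecular identifier (UMI), which marks 1 captured RNA molecule. Because the cells were selected on their own Pdcd1 UMIs, the Pdcd1 level below is a description of that choice, and the comparisons concern other genes. Each Pdcd1-positive cell was set beside the 2 cells of its own library that had 0 UMIs of Pdcd1 and lay nearest to it in total UMIs, called 0-UMI cells below, 1118 in HC and 1540 in NC.

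PD-1 is a cell surface receptor that T cells switch on when their antigen receptor signals. When it binds its ligands PD-L1 or PD-L2 it recruits the phosphatase SHP-2 and dampens signalling from the antigen receptor and from CD28. It is raised briefly on T cells soon after activation and lastingly, together with other inhibitory receptors such as Lag3, Tigit and Havcr2 and the transcription factor Tox, on exhausted CD8 T cells in chronic infection and tumours.

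The libraries came from lymph node CD8+ T cells of the mouse, captured with a droplet kit that reads the 3' end of each RNA, and the series compares cells given electrical stimulation from their matrix with cells that were not. The labels give 1 library called HC and 1 called NC, spell out neither name, do not say which was stimulated, and state no strain, age, culture time or number of animals. With 1 library in each group there was no replicate and no test, and every 95% interval covers counting error only. A difference between HC and NC therefore cannot be told apart from any other difference between these libraries.

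Promoters of 3 genes are shown because Pdcd1 chose the cells, and because Nr4a2 and Xcl1 were among the genes that differed most between Pdcd1-positive and 0-UMI cells. Each sequence is the 250 bases before the annotated start, on the gene's own minus strand, from RefSeq with build GRCm38.p6, and Pdcd1 itself lies at chr1:94038305-94052553. The windows are chr1:94052554-94052803 for Pdcd1, chr2:57124004-57124253 for Nr4a2 and chr1:164935523-164935772 for Xcl1. Capitals mark the letters GGAAA, the core that NFAT factors bind, and GCGNGGGCG, a site for EGR factors, on either strand, so that GGAAA on the opposite strand reads TTTCC.
Pdcd1 promoter: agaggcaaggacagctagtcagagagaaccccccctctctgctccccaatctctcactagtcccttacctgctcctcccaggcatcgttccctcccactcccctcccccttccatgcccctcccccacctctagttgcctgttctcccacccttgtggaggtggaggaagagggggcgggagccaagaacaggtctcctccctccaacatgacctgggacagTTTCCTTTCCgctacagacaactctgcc
Nr4a2 promoter: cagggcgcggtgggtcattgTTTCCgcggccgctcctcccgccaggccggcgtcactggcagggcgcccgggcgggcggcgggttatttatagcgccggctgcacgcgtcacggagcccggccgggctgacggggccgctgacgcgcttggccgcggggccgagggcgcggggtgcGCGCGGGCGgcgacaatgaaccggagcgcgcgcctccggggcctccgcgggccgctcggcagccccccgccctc
Xcl1 promoter: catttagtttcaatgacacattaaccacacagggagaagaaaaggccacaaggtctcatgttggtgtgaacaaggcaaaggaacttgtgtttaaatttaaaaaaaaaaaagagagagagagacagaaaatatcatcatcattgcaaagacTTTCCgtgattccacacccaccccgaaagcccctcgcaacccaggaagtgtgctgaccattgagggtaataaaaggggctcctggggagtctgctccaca
The Pdcd1 window held 2 GGAAA runs side by side, at -28 to -24 and -23 to -19 from the start. The Nr4a2 window held 1 such run and 1 GCGNGGGCG run, at -74 to -66, and the Xcl1 window held 1 GGAAA run, at -100 to -96. GGAAA is short and was present in 55.6% of all 32851 windows of the same length, and GCGNGGGCG in 4.70%. Of the 25 genes higher in Pdcd1-positive cells, described below, 18 had at least 1 window. GGAAA was in a window of 14 of these genes and GCGNGGGCG in a window of 3. TGANTCA, an AP-1 site, was in a window of 5 of the 18 genes, and 6.75% of all windows held it. TGACGTCA, a cAMP response element, was in a window of 0 of the 18 genes and in 1.55% of all windows. The first figures count genes with the letters in any of their windows and the percentages count windows, so they are not compared. A match says only that the letters are there.

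The cells fitted their label by their Cd3 and Cd8 transcripts. Cd3 transcripts were found in 100% of the Pdcd1-positive cells, and UMIs of the CD8 chains Cd8a or Cd8b1 without any of Cd4 in 99.3% of those in HC and 99.5% of those in NC. Cd4 had 0 UMIs in the HC and 1 UMI in the NC Pdcd1-positive cells. All 6 macrophage and all 4 neutrophil markers were at 0 UMIs there. The 7 B cell markers summed to 19.2 UMIs per 1000000 UMIs (CPM) in Pdcd1-positive and 22.2 CPM in 0-UMI cells of HC, and to 19.2 against 45.9 CPM in NC, with Ms4a1, a B cell membrane protein, and Pax5, the factor that defines B cells, at 0 in the Pdcd1-positive cells of both. The libraries held 116897716 (HC) and 117408492 (NC) UMIs, with a median of 7425 and 6898 UMIs per kept cell. The 6 dendritic cell markers summed to 46.3 CPM in Pdcd1-positive and 43.0 CPM in 0-UMI cells of HC and to 12 against 11.9 CPM in NC, most of it H2-Ab1, with Siglech at 0 in all 4 groups. The gamma-delta T cell markers, mostly Trdc, summed to 111 against 98.9 CPM in HC and 129 against 125 CPM in NC. The regulatory T cell markers summed to 302 against 273 CPM in HC and 259 against 237 CPM in NC. At least 2 markers of the B cell, macrophage, dendritic and plasma cell lists were found in 122 HC and 118 NC Pdcd1-positive cells. The matched 0-UMI cells had 231 such cells in HC and 232 in NC. Between the libraries 49 barcodes of kept cells were shared, 0 of them Pdcd1-positive in both.

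Pdcd1 transcripts were sparse, and Pdcd1-positive cells were less common in HC than in NC. They made up 4.11% of kept HC cells (3.78 to 4.45) and 5.64% of kept NC cells (5.26 to 6.05). Over all kept cells Pdcd1 stood at 27.7 CPM in HC (26.8 to 28.7) and 34.5 CPM in NC (33.5 to 35.6). Within the selected cells it stood at 207 CPM in HC and 202 CPM in NC, and these cells held 46.2% of the library's Pdcd1 UMIs in HC and 53.0% in NC. The most in a cell was 10 UMIs in HC and 12 UMIs in NC. Just inside the limit lay 347 HC and 477 NC cells with 2 UMIs, and just outside it 1707 HC and 1881 NC cells with 1 UMI.

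The selection favoured cells with many UMIs. The share of Pdcd1-positive cells was 0.969% in the lowest of 4 equal depth classes of HC cells and 9.31% in the deepest, and 1.03% and 13.4% in the same classes of NC. Pdcd1-positive cells had a median of 11347 UMIs in HC and 12118 in NC, and the matched 0-UMI cells 11346 and 12113. After every cell was thinned to 3000 UMIs, at least 1 Pdcd1 UMI was found in 7.15% of HC cells (6.72 to 7.60) and 8.44% of NC cells (7.98 to 8.93). Without thinning, at least 1 Pdcd1 UMI was found in 16.6% of HC and 19.4% of NC cells, and at least 2 UMIs remained after thinning in 0.739% of HC and 1.02% of NC cells, so NC was above HC at equal depth too. Free RNA could not be gauged well. Among 20 NC cells with at least 3 B cell markers, 35% had a Pdcd1 UMI (15.4 to 59.2, median 13508.5 UMIs), against 19.4% of the other NC cells (median 6890 UMIs). However, 15 of the 20 also had Cd8a or Cd8b1 UMIs, and HC held 1 cell with at least 3 B cell markers. A share of cells with a Pdcd1 UMI is therefore not read as the share of cells that express PD-1.

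**Figure D1:**
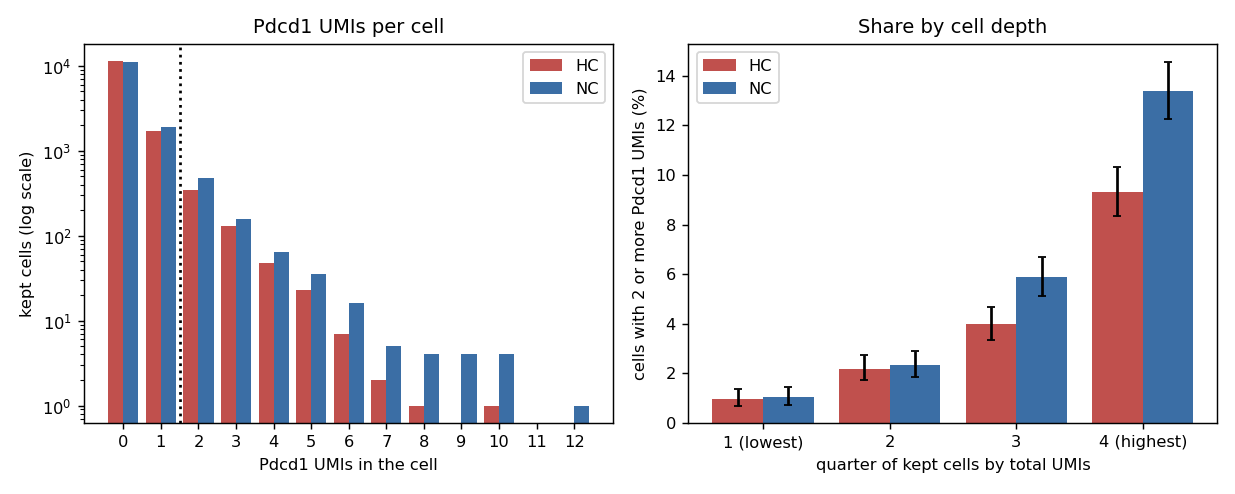
Left, kept cells (log scale) by their number of Pdcd1 UMIs, HC bars left of NC bars, with a dotted line at the limit of 2 UMIs. Right, the share of Pdcd1-positive cells in each of 4 equal classes of cells by total UMIs, with 95% binomial intervals: it climbed with depth in both libraries, to 9.31% in HC and 13.4% in NC.

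Pdcd1-positive cells carried more RNA of 4 antigen receptor response genes, of the chemokines Ccl4 and Xcl1 and of 3 co-stimulatory receptors, and less RNA of Klf2, Klf3 and S1pr1, genes of resting, recirculating T cells. Of 4758 genes with a mean of at least 20 CPM over both cell groups in each library, 25 were at least 1.5-fold higher in Pdcd1-positive than in 0-UMI cells in both libraries, which is 0.525% of the genes tested. Only 4 genes were at least 1.5-fold lower in both, 0.0841% of those tested, and 0 genes passed 1.5-fold in opposite directions. The median log2 ratio over all 4758 genes was 0.01 in HC and 0.02 in NC. A further 10 genes passed 1.5-fold in HC alone and 28 in NC alone. Gene lists are described by how many of their genes passed and by their median, with no test of a list. Higher and lower are used for genes that passed 1.5-fold, here in both libraries. Over other settings the number of higher genes lay between 8 and 74 and that of lower genes between 0 and 31, the highest of each without depth matching.

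**Figure D2:**
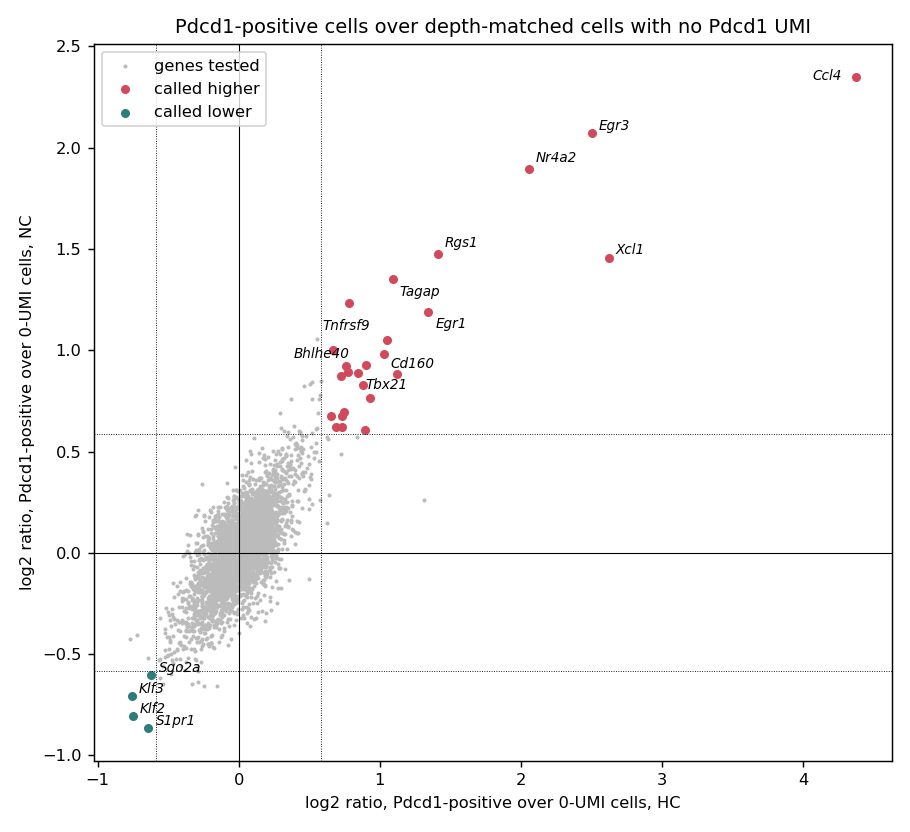
Each point is 1 of the 4758 genes, by its log2 ratio of Pdcd1-positive over 0-UMI cells in HC (horizontal) and NC (vertical); dotted lines mark 1.5-fold. Ccl4, Egr3, Nr4a2 and Xcl1 lie farthest out in the upper right, and Klf2, Klf3, S1pr1 and Sgo2a are the 4 genes in the lower left.

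Of the antigen receptor response genes, Egr3, Nr4a2, Egr1 and Myc were higher. Egr3, a zinc finger factor induced by calcium and NFAT, was at 49.8 CPM in Pdcd1-positive and 8.79 CPM in 0-UMI cells of HC, and at 58.5 against 13.9 CPM in NC. The log2 ratios were 2.50 (2.20 to 2.81) in HC and 2.07 (1.87 to 2.28) in NC, where the intervals leave out the spread between cells. Nr4a2, an orphan nuclear receptor of the family that antigen receptor signals induce, was at 38.6 against 9.30 CPM in HC and 66.7 against 17.9 CPM in NC. Egr1, a related early factor, was at 72.3 against 28.5 CPM in HC and 79.1 against 34.7 CPM in NC, and Myc, which drives growth of activated T cells, at 60.3 against 36.4 CPM in HC and 72.1 against 39.3 CPM in NC. These 4 were higher among the 9 antigen receptor response genes tested, and the other 5 (Nab2, Ier2, Ier3, Dusp2 and Dusp5) all had ratios above 0 in both libraries. The median log2 ratio of the 9 was 0.63 in each library. Nr4a1, Nr4a3 and Egr2 lay under the 20 CPM limit in at least 1 library and were looked at after their values were seen: Nr4a1 was at 21.2 against 5.48 CPM in HC and 33.8 against 7.84 CPM in NC.

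The rest of the receptor apparatus differed little. None of the 17 genes of the CD3 complex, CD8 co-receptor and proximal kinases passed 1.5-fold, with medians of 0.04 in HC and 0.09 in NC. Cd3e, a CD3 chain, was at 303 CPM in Pdcd1-positive and 290 CPM in 0-UMI cells of HC and at 340 against 325 CPM in NC. Cd8a was at 270 against 226 CPM in HC and 423 against 322 CPM in NC, with log2 ratios of 0.25 and 0.39. Other genes that were higher, named from those that passed and belonging to no list of this pathway, were Orai1, the calcium channel of the plasma membrane that feeds NFAT signalling (60.7 against 38.2 CPM in HC and 86.6 against 43.3 CPM in NC), Tespa1, which takes part in antigen receptor signalling in thymocytes (log2 0.76 in HC and 0.92 in NC), Tagap, a GTPase-activating protein of activated T cells (1.09 and 1.35), and Rgs1, which blunts chemokine receptor signalling (1.41 and 1.47).

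Chemokine genes showed wide gaps, Ccl4 above all. Ccl4, an inflammatory chemokine made by activated T cells, was at 117 CPM in Pdcd1-positive cells (109 to 125) and 5.62 CPM in 0-UMI cells (4.44 to 7.02) of HC, and at 392 CPM (380 to 404) against 76.7 CPM (73.0 to 80.6) in NC. That is a log2 ratio of 4.37 (4.04 to 4.73) in HC and 2.35 (2.27 to 2.44) in NC. Xcl1, which attracts cross-presenting dendritic cells, was at 96.6 CPM (89.5 to 104) against 15.7 CPM (13.7 to 17.9) in HC and at 854 CPM (836 to 872) against 311 CPM (304 to 319) in NC, with log2 ratios of 2.62 and 1.46. Within each library the intervals of the cell groups do not overlap, but they leave out the spread between cells. The signal in HC came from few cells: the 5 Pdcd1-positive cells with the most UMIs of the gene held 40.4% of the Ccl4 UMIs and 35.6% of the Xcl1 UMIs in HC, against 16.4% and 12.6% in NC. Both genes were higher among the 4 cytokine and chemokine genes tested, whose medians were 1.97 in HC and 0.86 in NC. The other members tested were Ccl5 and Ltb, the gene of lymphotoxin beta, which had log2 ratios of 0.10 and 0.15.

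Ifng, the main effector cytokine of CD8 T cells, lay below the limit and was looked at after its values were seen, at 10.2 CPM (7.97 to 12.8) in Pdcd1-positive and 1.15 CPM (0.659 to 1.87) in 0-UMI cells of HC, and at 28.8 CPM (25.7 to 32.3) against 7.11 CPM (6.01 to 8.36) in NC. Ccl5, a chemokine of effector and memory cells, passed 1.5-fold in HC alone, at 240 against 96.5 CPM, with 180 against 150 CPM in NC, and 5 cells held 34.4% of its UMIs in HC. The difference between the libraries in that ratio was not tested. Of 9 cytotoxic genes tested 0 passed in both libraries. Gzmb, the granzyme of activated killer cells, was at 605 against 424 CPM in HC and 357 against 273 CPM in NC, with log2 ratios of 0.51 (0.46 to 0.57) and 0.39 (0.33 to 0.45). Serpinb9, which protects killer cells from their own granzyme B, had log2 ratios of 0.84 and 0.57.

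Of the co-stimulatory receptors of the tumour necrosis factor family, Tnfrsf9 and Tnfrsf4 were higher, and Tnfrsf18 (log2 0.30 in HC and 0.26 in NC) and Cd27 (0.04 and 0.21) did not pass. Tnfrsf9 (4-1BB), which appears after antigen receptor signalling and sustains CD8 T cells, was at 100 CPM in Pdcd1-positive and 48.4 CPM in 0-UMI cells of HC and at 148 against 71.3 CPM in NC, a log2 ratio of 1.05 in each. Tnfrsf4 (OX40) was at 81.1 against 47.4 CPM in HC and 86.6 against 46.6 CPM in NC. Slamf7, a homotypic receptor of activated and cytotoxic lymphocytes, had log2 ratios of 0.78 and 1.24. These were the 3 higher among 14 co-stimulatory receptors and activation markers tested, whose medians were 0.10 in HC and 0.17 in NC. Icos, Cd44, Cd226 and Slamf6 had ratios below 0 in both libraries, and Il2ra, which gives the receptor for interleukin-2 its high affinity, had 0.55 and 0.50. Bcl2a1b, a survival gene of the BCL2 family with near-identical copies among which reads may be split, was higher, with 0.93 and 0.77, as the 1 of 9 survival and death genes.

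Of 6 other inhibitory receptors tested only Cd160, which binds HVEM and can inhibit or stimulate, was higher: 69.3 CPM in Pdcd1-positive and 34.0 CPM in 0-UMI cells of HC and 193 against 97.8 CPM in NC, with log2 ratios of 1.03 (0.84 to 1.21) and 0.98 (0.89 to 1.07). Lag3, which binds MHC class II, was at 99.2 against 92.9 CPM in HC and 96.5 against 81.9 CPM in NC, with log2 ratios of 0.09 (-0.04 to 0.23) and 0.24 (0.12 to 0.35). Ctla4, which competes with CD28 for its ligands, was at 161 against 170 CPM in HC and 101 against 113 CPM in NC. Cd96 and Vsir, an Ig-family and a VISTA checkpoint receptor, stayed within 0.23 of 0 on the log2 scale, and Klrc1 (NKG2A) had 0.62 and 0.15. The median of the 6 was 0.08 in HC and 0.02 in NC. Tigit and Havcr2 (TIM-3) were near the limit of detection, Tigit at 1.27 against 0.433 CPM in HC and 1.24 against 1.02 CPM in NC, and Havcr2 at 0.990 against 0.360 CPM in HC and 1.14 against 0.532 CPM in NC. The remaining 8 of the 16 receptors listed also lay below the limit.

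Receptors were also counted per cell. After thinning to 3000 UMIs, at least 2 of Lag3, Tigit, Havcr2, Ctla4 and Cd160 were detected in 16.7% of Pdcd1-positive and 11.1% of 0-UMI cells in HC and in 17.8% against 14.4% in NC. At full depth the shares were 64.4% against 59.4% in HC and 72.3% against 62.7% in NC. Cd160 alone was found in 18.7% of thinned Pdcd1-positive cells and 7.73% of 0-UMI cells in HC and in 35.9% against 22.9% in NC. Lag3 was found in 27.7% against 24.0% in HC and 23.7% against 21.2% in NC. Ctla4 went the other way, in 32.2% against 38.7% in HC and 23.5% against 28.8% in NC. Tigit was found in at most 0.784% and Havcr2 in at most 0.540% of the cells of any of these groups.

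Of 7 exhaustion-linked transcription factors tested, 2 were higher. Tbx21 (T-bet), which drives the effector programme, was at 34.2 CPM in Pdcd1-positive and 19.0 CPM in 0-UMI cells of HC and at 36.0 against 19.4 CPM in NC. Bhlhe40, which supports mitochondrial function in activated T cells, was at 58.2 against 31.1 CPM in HC and 36.0 against 18.9 CPM in NC. Batf, Irf4, Id2 and Ikzf2 had log2 ratios between -0.25 and 0.25, and Rbpj, the effector of Notch signalling, had 0.37 and 0.76. Tox, the factor that sets up the exhausted state, lay below the limit in HC, at 15.7 against 12.3 CPM, and was at 25.3 against 22.3 CPM in NC. Its log2 ratios were 0.35 (-0.01 to 0.70) and 0.18 (-0.04 to 0.40). Tox2 and Eomes were below 6 CPM in every group. The medians of the 7 were 0.15 in HC and 0.25 in NC.

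Of PD-1's ligands and signalling partners, none of the 6 tested passed 1.5-fold, and the ligands lay under the floor. Ptpn11, which encodes SHP-2, was at 28.0 CPM in Pdcd1-positive and 24.8 CPM in 0-UMI cells of HC and 31.2 against 27.2 CPM in NC, and the related phosphatase gene Ptpn6 (SHP-1) at 226 against 186 CPM in HC and 290 against 239 CPM in NC. Cd28, whose signal PD-1 dampens, had log2 ratios of -0.07 and -0.17. The ligand gene Cd274 (PD-L1) lay below the limit, with log2 ratios of 0.89 and 0.85, and passed 1.5-fold at a floor of 5 CPM, and Pdcd1lg2 (PD-L2) was at 6.65 against 1.80 CPM in HC and 11.3 against 5.56 CPM in NC. Of 15 tested genes of factors reported to act on Pdcd1 transcription 0 passed. Nfatc1, an NFAT factor, had log2 ratios of 0.46 and 0.82, and Tcf7 (TCF-1), of stem-like and memory cells, -0.45 and -0.35.

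Among genes of resting T cells, Klf2, S1pr1 and Klf3 were lower. Klf2, which keeps T cells quiescent and recirculating, was at 293 CPM in Pdcd1-positive cells (281 to 306) and 494 CPM in 0-UMI cells (482 to 505) of HC, and at 209 CPM (200 to 217) against 365 CPM (357 to 373) in NC. S1pr1, the receptor by which T cells leave lymph nodes and a target of Klf2, was at 33.1 against 51.6 CPM in HC and 23.7 against 43.2 CPM in NC, and Klf3, a related factor, at 26.5 against 44.8 CPM in HC and 16.8 against 27.5 CPM in NC. They were the 3 lower of 15 naive and memory genes tested, with medians of -0.22 in HC and -0.19 in NC. Ccr7, Il7r and Lef1 had ratios between -0.53 and -0.26 in both libraries and did not pass, whereas Id3 had 0.27 and 0.35.

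Cell cycle and growth genes split. All 20 mitosis genes had ratios below 0 in both libraries, with medians of -0.30 in HC and -0.36 in NC, but 0 of them passed 1.5-fold. How many of all genes tested had the same sign in both libraries was not counted, so such counts for lists stand without that background. Mki67, a marker of dividing cells, was at 482 CPM in Pdcd1-positive and 607 CPM in 0-UMI cells of HC and at 381 against 490 CPM in NC. Cenpf, a kinetochore protein, was at 240 against 349 CPM in HC and 188 against 295 CPM in NC. Sgo2a, which guards sister chromatid cohesion, was the last of the 4 lower genes, at 42.9 against 65.8 CPM in HC and 36.5 against 55.4 CPM in NC. The 19 replication genes tested had medians of 0.02 and 0.05 and 0 that passed.

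All 14 ribosome assembly genes tested had ratios above 0 in both libraries, with medians of 0.41 in HC and 0.55 in NC. Nop2 and Rrp9, which modify and process ribosomal RNA, passed, Nop2 at 24.8 against 15.4 CPM in HC and 37.2 against 24.2 CPM in NC. Of 9 amino acid and polyamine genes only Slc7a1, an arginine transporter, was higher (0.66 and 0.68). The lists of 14 glycolysis, 5 hypoxia, 11 sterol and fatty acid, 4 interferon-stimulated, 13 interferon-gamma response and class I, and 7 gamma-chain cytokine genes tested had 0 genes that passed in both libraries, with medians between -0.32 and 0.16. Of 8 homing genes Rgs1 alone was higher, and Itga4, an integrin chain used in homing, had -0.65 and -0.52. The remaining genes higher in Pdcd1-positive cells were Hivep3, a zinc finger factor (1.12 and 0.89), Ndufaf4 and Chchd4, which help build the respiratory chain and import mitochondrial proteins (0.88 and 0.83, and 0.75 and 0.70), Hilpda, a lipid droplet protein (0.73 and 0.68), and Btg3, which restrains proliferation (0.73 and 0.62). Against 0-UMI cells matched on cycling UMIs as well as depth, 26 genes were higher, 22 of them among the 25. There 2 genes were lower, Klf2 and Klf3, both among the 4, and S1pr1 and Sgo2a did not pass.

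**Figure D3:**
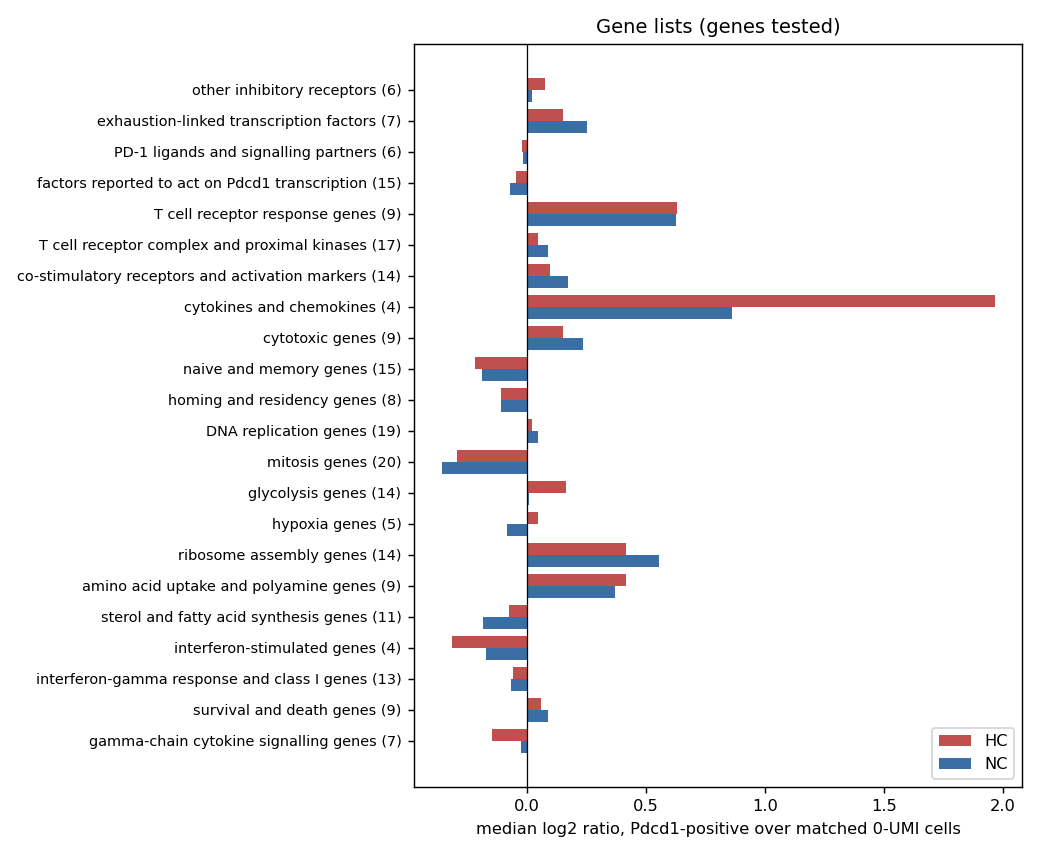
Bars give the median log2 ratio of Pdcd1-positive over 0-UMI cells for each gene list, HC bars above NC bars, with the number of genes tested in brackets. Cytokines and chemokines (4 genes) and antigen receptor response genes (9 genes) stand highest, mitosis genes lie below 0, and the other inhibitory receptors close to 0.

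Some genes kept an order with the number of Pdcd1 UMIs beyond the limit that chose the cells, and others did not. In HC, Egr3 stood at 8.79 CPM in matched 0-UMI cells, 18.6 CPM in cells with 1 Pdcd1 UMI, 41.7 CPM with 2, 59.3 CPM with 3 and 67.4 CPM with 4 or more. In NC the same classes had 13.9, 31.9, 41.3, 77.4 and 89.2 CPM of Egr3. Klf2 ran the other way, with 494, 400, 325, 258 and 220 CPM in HC and 365, 315, 244, 170 and 147 CPM in NC. In HC, Ccl4 had 172 CPM at 3 and 114 CPM at 4 or more Pdcd1 UMIs, Xcl1 131 and 72.7 CPM, Cd160 91.8 and 70.1 CPM and Tnfrsf4 99.9 and 93.1 CPM, so these 4 did not keep the order in the top class of 82 cells. S1pr1 in HC went the other way there, with 26.2 and 31.9 CPM, and Mki67 in HC had 451 CPM at 2, 498 CPM at 3 and 581 CPM at 4 or more. Lag3 was nearly flat, at 81.9, 92.0, 97.5, 90.5 and 100 CPM in NC. The classes differed in depth, with a median of 9053 UMIs in HC and 9069 in NC for cells with 1 Pdcd1 UMI and 13125 and 13777 for cells with 4 or more.

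**Figure D4:**
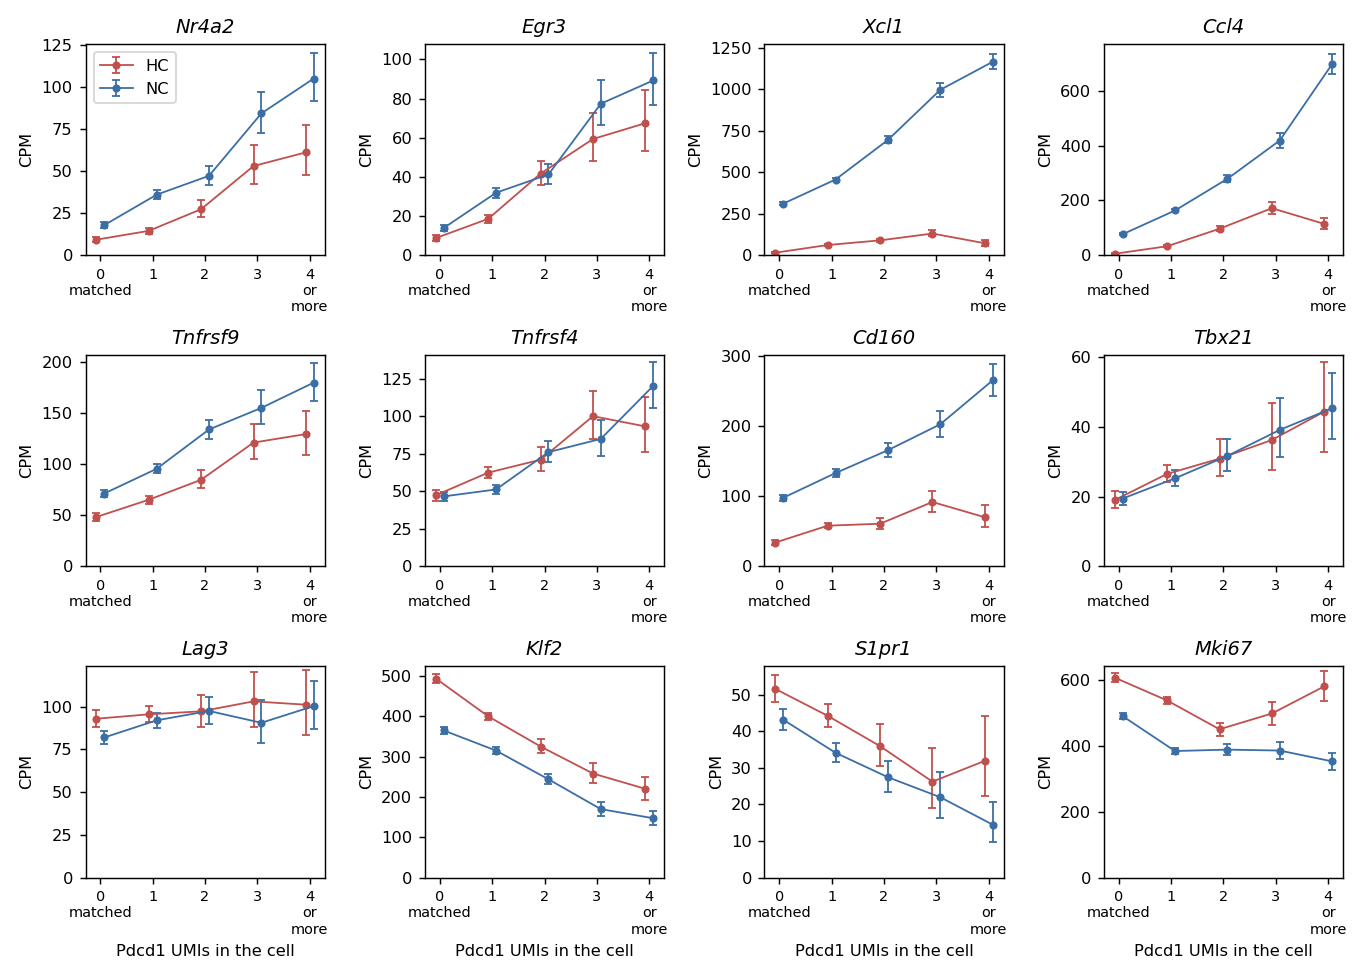
CPM of 12 genes in cells with 0 (matched), 1, 2, 3 and 4 or more Pdcd1 UMIs, HC in red drawn left of NC in blue, with 95% Poisson intervals. Nr4a2, Egr3, Tnfrsf9 and Tbx21 climb in both libraries and Klf2 declines, while Lag3 stays between 81.9 and 103 CPM.

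Pdcd1-positive cells differed among themselves in the RNA of antigen receptor response genes. UMIs of Nr4a1, Nr4a2, Nr4a3, Egr1, Egr2 and Egr3 together were at 0 in 297 of 559 Pdcd1-positive cells in HC (53.1%) and 291 of 770 in NC (37.8%), against 73.3% and 64.4% of the 0-UMI cells. At least 5 such UMIs were found in 17.2% of Pdcd1-positive and 3.76% of 0-UMI cells in HC and in 23.6% against 6.49% in NC. The tenth of Pdcd1-positive cells with the most of these UMIs held 62.1% of them in HC and 52.1% in NC. Chemokine RNA went with them: Ccl4 was detected in 32.1% of Pdcd1-positive HC cells with such a UMI and 7.07% of those without, and in 55.1% and 16.8% in NC. After thinning to 3000 UMIs, any UMI of the 6 genes was found in 25.4% of Pdcd1-positive cells (21.8 to 29.2) and 10.3% of 0-UMI cells (8.53 to 12.2) in HC, and in 36.5% (33.1 to 39.99) against 14.4% (12.7 to 16.2) in NC. The part of depth in the chemokine shares was not tested.

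Restricting both cell groups to cells with 0 UMIs of these 6 genes, matched anew, left 297 HC and 291 NC Pdcd1-positive cells. This comparison was added after the data were seen. It gave 8 higher genes and 1 lower gene, against 25 and 4 in all cells. Of the 8, Bhlhe40, Cd160, Slamf7, Tnfrsf4 and Tnfrsf9 were among the 25, and Ccl5, Glipr1 and Serpinb9 were not. Cd160 was at 53.8 CPM in Pdcd1-positive and 35.2 CPM in 0-UMI cells of HC and 138 against 85.5 CPM in NC, and Tnfrsf9 at 68.6 against 42.4 CPM in HC and 96.7 against 50.9 CPM in NC. Ccl4 and Rgs1 left the count because their mean over both cell groups fell under 20 CPM in HC. Their log2 ratios were 3.12 in HC and 2.58 in NC for Ccl4 and 0.94 and 0.86 for Rgs1. Xcl1 lay under 20 CPM in HC too, at 15.7 against 11.4 CPM, and its log2 ratio there was 0.46, short of 1.5-fold. In NC Xcl1 was at 294 against 117 CPM, a log2 ratio of 1.33. Egr1, Egr3 and Nr4a2 are 0 by the restriction. Klf2 missed the limit, at 355 against 525 CPM in HC and 280 against 405 CPM in NC. Tagap turned round in HC, at 10.1 against 14.4 CPM, both under the 20 CPM limit, and was at 24.0 against 13.8 CPM in NC. The 1 lower gene was Rasgrp1, which links the antigen receptor to RAS.

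Between the libraries, Pdcd1-positive cells of HC had more RNA of most glycolysis and low-oxygen genes, and less of Xcl1, Ccl4, Ccl3, Cd160 and most ribosome assembly genes, than those of NC. Of 5008 genes with a mean of at least 20 CPM over both libraries' Pdcd1-positive cells, 89 passed 1.5-fold as higher in HC (1.78%) and 125 as lower (2.5%), with a median log2 ratio of -0.05. Among the 0-UMI cells 58 of 4951 genes were higher in HC (1.17%) and 53 lower (1.07%), with a median of -0.03. Of the 89 genes 54 were also higher in HC among 0-UMI cells, and of the 125 genes 40 were also lower there. Of the others, 5 and 28 were not tested in 0-UMI cells, and 0 of those tested in both had ratios of opposite sign. The sums over Pdcd1-positive cells rest on fewer UMIs than those over 0-UMI cells, and the part of this in the counts of genes was not tested.

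Most low-oxygen and glycolysis genes were higher in HC Pdcd1-positive cells, and their medians lay above 0 in 0-UMI cells too. Bnip3, which marks mitochondria for removal, was at 58.6 CPM in HC and 9.42 CPM in NC Pdcd1-positive cells, and at 44.3 against 10.8 CPM in 0-UMI cells, log2 ratios of HC over NC of 2.64 and 2.04. Aldoc, an aldolase, had 2.57 and 2.42, Ankrd37, a hypoxia-induced gene, 2.10 and 1.61, and Slc16a3, which exports lactate, 1.93 and 1.70. Of 15 glycolysis genes tested 13 were higher in HC Pdcd1-positive cells, with a median of 0.91 against 0.75 in 0-UMI cells, and of 11 hypoxia genes 10 were, with 0.91 and 0.97. H2-Ab1, an MHC class II chain, was also higher, at 44.0 CPM in HC and 9.61 CPM in NC, with 0-UMI cells at 41.2 and 10.4 CPM. Ctla4 was the 1 inhibitory receptor higher in HC, at 161 against 101 CPM.

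On the other side, Xcl1 was at 96.6 CPM in HC and 854 CPM in NC Pdcd1-positive cells, and at 15.7 against 311 CPM in 0-UMI cells, log2 ratios of -3.14 (-3.26 to -3.03) and -4.31 (-4.51 to -4.11). Ccl4 had -1.75 (-1.86 to -1.64) and -3.77 (-4.12 to -3.44), and Ccl3, a chemokine related to Ccl4, -1.95 (-2.18 to -1.72) and -4.99 (-5.83 to -4.26). Whether the gap between the libraries differs between the cell groups was not tested, and the 5 HC cells with the most Ccl3 UMIs held 51.8% of them. In cells with 0 NR4A and EGR UMIs, Xcl1 was at 15.7 CPM in HC and 294 CPM in NC Pdcd1-positive cells and at 11.4 against 117 CPM in 0-UMI cells, where the wider gap is that of the Pdcd1-positive cells. Cd160 was at 69.3 against 193 CPM, with log2 ratios of -1.48 in Pdcd1-positive and -1.52 in 0-UMI cells. Crtam, a receptor of activated CD8 T cells, had -1.98 and -1.76. Of 14 ribosome assembly genes 9 were lower in HC, with a median of -0.60 against -0.55 in 0-UMI cells. Of 10 antigen receptor response genes 3 were lower in HC Pdcd1-positive cells, Nr4a2 (-0.79), Nr4a1 (-0.67) and Nab2 (-0.61). The median of the 10 was -0.29, against -0.33 for the same genes in 0-UMI cells. Egr1 had -0.13 (-0.29 to 0.03) and Egr3 -0.23 (-0.43 to -0.04). Tbx21, of another list, had -0.07 (-0.31 to 0.17).

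**Figure D5:**
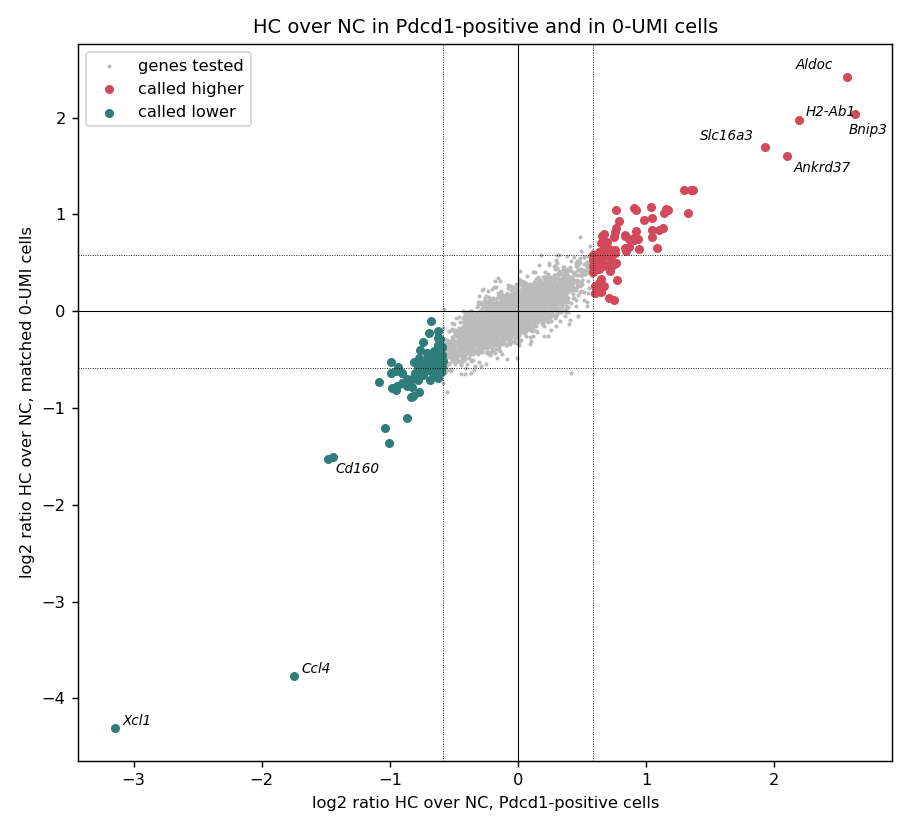
Each point is a gene tested in both cell groups, by its log2 ratio of HC over NC in Pdcd1-positive cells (horizontal) and in matched 0-UMI cells (vertical); coloured points passed 1.5-fold among Pdcd1-positive cells. Bnip3 and Aldoc lie at the upper right and Xcl1 and Ccl4 at the lower left, the pair farther from 0 in 0-UMI cells.

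Other ways of grouping these cells overlapped with Pdcd1. At least 2 UMIs of Xcl1 were found in 12.2% of Pdcd1-positive and 2.95% of 0-UMI cells in HC and in 50% against 21.7% in NC. For Il2ra the shares were 24.7% against 15.3% in HC and 15.8% against 9.94% in NC, and for Gzmb 72.8% against 59.5% in HC and 52.2% against 43.2% in NC. Ifng reached 2 UMIs in 1.79% against 0.0894% in HC and 3.64% against 0.844% in NC. Gzma, a granzyme of other effector cells, reached it in 3.76% against 4.20% in HC and 1.17% against 1.95% in NC.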

How the data were processed

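Single-cell RNA was counted in 1 HC and 1 NC library. The deposited values are UMI counts for each gene in each barcode, with no scaling by the authors. They are output of Cell Ranger 6.1.2, per the file headers; Cell Ranger 5.0.0, Seurat 3.2.3 and mm10 appear, with no role, in the submitters' processing notes. How barcodes were called is not given in those sources. Cells with at least 500 genes, at least 1000 UMIs and at most 10% mitochondrial UMIs were kept, with no upper limit and no doublet removal. Pdcd1-positive cells were those with at least 2 Pdcd1 UMIs. Each was matched, from the deepest down, to the 2 nearest unused 0-UMI cells of its library by log total UMIs less Pdcd1. Counts were summed per cell group and divided by the total to give CPM, and Pdcd1 was left out of the genes tested. Intervals at 95% are exact, Poisson for CPM and binomial for shares and ratios, and cover counting error only; no pseudocount was added, and against 0 the floor was 3 counts per cell group. Cells are not replicates, so no p-value is given.

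The cells, the 22 gene lists and the 12 marker lists were chosen with earlier results of these data known. The rule for named genes took the receptor, exhaustion and PD-1 partner lists, the 12 highest and 12 lowest ratios against 0-UMI cells, the 10 highest and 10 lowest of HC over NC and up to 4 genes of each list, 160 in all, with mitochondrial, ribosomal protein, predicted and receptor segment genes left out of the rankings. The rest of the genes that passed, marker genes, genes under the floor and further examples (Cd3e, Icos, Cd27, Cd44, Cd226, Tnfrsf18, Dusp2, Dusp5, Ier2, Slamf6, Il7r, Lef1, Mki67, Gzma, Rasgrp1 and Glipr1) fall outside it and were chosen after their values were seen. The ratios and calls were tried on simulated Poisson counts of the summed cell groups, which hold no spread between cells and so cannot gauge it. Scaling alternatives used edgeR 4.0.16 (TMM) and DESeq2 1.42.0 (size factors), with no count model. Promoters are RefSeq GRCm38.p6. Tools were R 4.3.3 and Python 3.11.15, with matplotlib 3.10.9, pandas 2.3.3, scipy 1.17.1 and numpy 2.4.6.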

Additional observations from a re-analysis of the deposited data

How the results depend on the processing

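No named gene ratio or list median of at least 1.5-fold changed sign under the 19 alternatives that kept all cell states, where they applied. These included other scaling, floors, fold limits, cell filters, depth matching and left-out barcodes shared between libraries. Fold limits cannot move a ratio or a median, and floors cannot move the ratio of a single gene. Scaling moved log2 ratios by at most 0.03, and the matching settings do not apply to ratios of HC over NC. The check covered the 160 named genes and the gene lists. Sign changes of smaller ratios and of other genes were not recorded. Without cells carrying NR4A or EGR UMIs, Tagap (-0.51) and Bcl2a1d (-0.23) turned round in HC, Tagap with both cell groups under 20 CPM. This setting and the one on shared barcodes were chosen after seeing the data. Ccl4, Xcl1, Egr1 and Tnfrsf9 stayed higher in Pdcd1-positive cells in all 19. Nop2 and Sgo2a passed in 7 of the 19 each and Rrp9 in 10. Of the other lower genes, Klf2 passed in 16, Klf3 in 15 and S1pr1 in 13. The share of Pdcd1-positive cells was 1.56% in HC and 2.15% in NC with at least 3 UMIs, 16.6% and 19.4% with at least 1, 4.61% and 6.08% with the stricter cell filter, 3.67% and 5.17% without cells with markers of other types, 0.739% and 1.02% after thinning to 3000 UMIs, and 5.23% in NC without the deepest cells. Higher genes in Pdcd1-positive cells, 25 in the main comparison, numbered 61 at a floor of 5 CPM, 8 at 50 CPM, 8 at 2-fold, 40 with at least 3 UMIs, 10 with at least 1, 45 thinned, 44 without the deepest cells, 38 without cells with other markers, 74 unmatched, 13 by thinned Pdcd1 and 8 without NR4A or EGR UMIs. Lower genes, 4 in the main comparison, numbered 10, 1, 0, 14, 0, 15, 10, 5, 31, 1 and 1 under the same settings in that order, 9 with cells weighted alike, and 2 each with depth bins and with matching on cycling. Genes higher and lower in HC (89 and 125) numbered 283 and 313 at 5 CPM, 42 and 50 at 50 CPM, 23 and 12 at 2-fold, 149 and 229 with at least 3 UMIs and 183 and 263 thinned. The cause of these moves was not tested, beyond the floors and fold limits, which change the genes tested or the limit. Of 9998 other values 1432 moved, past their counting interval for single genes or by at least a fixed step for list medians. The 9998 include values that a floor or a fold limit cannot move. The floor of 20 CPM was a choice: at 5 CPM Ifng, Nr4a1, Egr2, Ccl3 and Cd274 were among the higher genes, while Tigit, Havcr2 and Tox2 lay under that floor too. No paired analysis was possible because each group has 1 library.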

Other observations

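T cell receptor variable segments were uneven on the beta side. Trbv12-1 held 97.0% of the 66 Trbv UMIs of Pdcd1-positive cells in HC and 98.3% of the 117 in NC, and 97.0% of 135 and 97.4% of 231 in the 0-UMI cells. Over all kept cells it held 96.5% of 1282 Trbv UMIs in HC (95.3 to 97.4) and 97.8% of 1415 in NC (96.9 to 98.5). Trav segments were spread, with the leading one, Trav16, at 11.6% of 397 UMIs in HC and Trav21-dv12 at 11.2% of 484 in NC. The labels state no antigen receptor for these cells.

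Some further genes below the 20 CPM limit in at least 1 library, picked after their values were seen, followed the pattern of the called genes. Lta, a cytokine of the tumour necrosis factor family, was at 15.6 CPM in Pdcd1-positive and 5.19 CPM in 0-UMI cells of HC and at 21.6 against 7.06 CPM in NC. Prf1, the pore-forming protein perforin, was at 23.9 against 7.42 CPM in HC and 28.1 against 12.2 CPM in NC. Hk2, the inducible hexokinase, was at 16.7 against 7.28 CPM in HC and 10.4 against 5.03 CPM in NC. Cdkn1a, an inhibitor of the cell cycle, was at 33.5 against 18.8 CPM in HC and 25.6 against 11.9 CPM in NC.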
